A study of Homo sapiens with 12 samples.

Results

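Siglecs are cell surface lectins that bind sialic acids, the sugars that cap many glycans on host cells. Most carry cytoplasmic tyrosine motifs that recruit the phosphatases PTPN6 and PTPN11 and dampen immune cell activation, whereas a few pair with the adaptor TYROBP, which signals through the kinase SYK. SIGLEC1 has neither feature: it is a long adhesion and uptake receptor of macrophages that captures sialylated particles, and its gene is known to be induced by type I interferon. The 9 Siglec genes described here were SIGLEC1, SIGLEC5, SIGLEC7, SIGLEC9, SIGLEC10, SIGLEC14, SIGLEC15, CD33 and CD22, found by symbol among 58735 genes of the count table. Of the 9, 8 passed the filter on low counts and were among the 15471 genes tested, and SIGLEC5 was not.

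The cells were THP-1 macrophages, from a human monocytic leukaemia line. They were transfected by lipofection (RNAimax) with a miR-122-5p mimic, a synthetic copy of that microRNA, or with a control microRNA mimic, each at 30 nM for 24 h, rested, and exposed to the bacterial product LPS for 4 h. Each group had 6 libraries of this 1 cell line, and both groups received LPS. Nothing in the labels ties the 6 libraries to separate cultures, so a p-value reflects the spread among libraries, whose source may be technical. The labels relate the experiment to immune regulation by miR-122-5p carried in exosomes. A level is given in CPM (counts scaled to a fixed library total) and corrected for library composition, and a log2 fold change is miR-122-5p over control mimic with its standard error (SE). A gene was called when its adjusted p from edgeR was under 0.05.

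The microRNA is shown with its seed, bases 2 to 8, in capitals, because matches to the seed in 3′ UTRs are described below. The sequence is that of RefSeq, build GRCh38.p14, chromosome 18, 58451088 to 58451109, plus strand.
hsa-miR-122-5p: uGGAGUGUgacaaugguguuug

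Library totals ran from 29473750 to 35684464 counts with miR-122-5p and from 31019890 to 39468157 with the control mimic. Macrophage identity was checked on 11 markers, of which 9 were tested; their summed level was 1545 to 1713 CPM with miR-122-5p and 1614 to 1921 CPM with the control mimic. CSF1R averaged 444 and 569 CPM in these groups and ITGAM 441 and 386 CPM, but CD68 averaged 0.239 and 0.216 CPM, with 85.8% of its exon bases shared with other annotated genes, and MRC1 was at 0 in 11 of 12 libraries. Summed dendritic cell markers were at 1.34 to 2.85 CPM with miR-122-5p and 2.71 to 4.08 CPM with the control mimic, mast cell and eosinophil markers at 6.51 to 20.3 and 4.74 to 22.7 CPM, and markers of non-blood cells at 14.8 to 16.8 and 8.15 to 12 CPM. The dependence of a library's log2 CPM on transcript GC content, relative to the mean over libraries, differed between the groups: the slope per 10 percentage points was 0.146 ± 0.0659 with miR-122-5p, against -0.146 ± 0.124 with the control mimic (SD, n = 6 each), and the ranges did not overlap. Values from a fit with the GC and length trend of every library removed (the corrected fit), and from one with the GC slope as a covariate (the slope fit), are therefore given beside the results they change. Because the slope separates the groups, slope and mimic can only in part be told apart. Among control libraries, number 1 had the lowest slope (-0.318) and number 6 the fewest genes with a count (19298), so results were also computed without both.

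The main comparison asked which Siglec transcripts changed with miR-122-5p relative to the control mimic. SIGLEC1 and SIGLEC14 fell with miR-122-5p, to 0.535 and 0.431 of their control levels, and SIGLEC15, SIGLEC7 and SIGLEC9 rose by log2 fold changes of 0.43 to 0.58. CD33, CD22 and SIGLEC10 were not called. Thus 5 of 8 tested genes (62.5%) were called, where 50.5% of all tested genes were; 3 were higher, against 24.3% of all genes, and 2 were lower, against 26.2%. These shares are near those of all genes, and the median log2 fold change of the 8 was 0.05, against 0.01 over all 15471, so the family as a whole did not stand apart by count or median. The values of the 2 groups did not overlap for 2 of the 8, SIGLEC1 and SIGLEC14, and for the untested SIGLEC5, where 29.5% of all tested genes had no overlap.

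**Figure D1:**
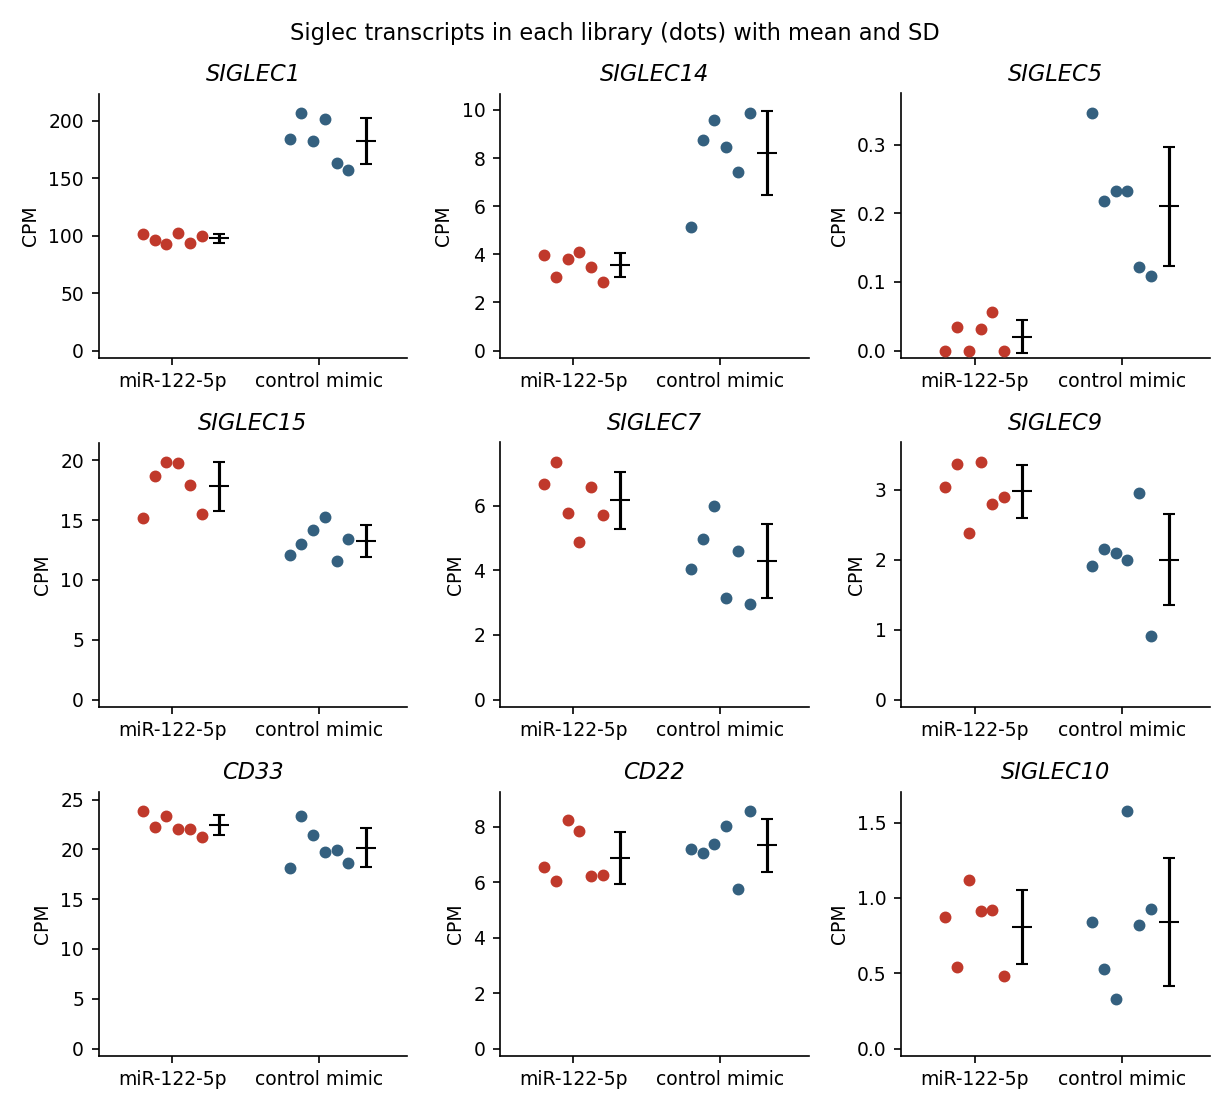
CPM (linear axis) of each of the 9 Siglec genes in the 6 miR-122-5p libraries (red, left) and the 6 control mimic libraries (blue, right); each dot is a library and the bar beside it is the mean with its SD. SIGLEC1, SIGLEC14 and SIGLEC5 are separated between the groups, and the other 6 genes overlap.

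SIGLEC1 is the macrophage adhesion receptor known as sialoadhesin (ENSG00000088827, chromosome 20, 3686970 to 3707128, minus strand, hg38 with GENCODE 29 annotation). Its level was 92.9 CPM in the lowest, 98.3 in the median and 102 in the highest of the 6 miR-122-5p libraries, against 157, 183 and 207 CPM in control mimic libraries. All 6 miR-122-5p libraries lay below all 6 control libraries, and they were also closer together (SD 4.11, against 19.9 CPM in controls). The mean of 97.6 CPM with miR-122-5p, against 183 CPM with the control mimic, was a log2 fold change of -0.90 ± 0.07 (edgeR adjusted p = 1.77e-09), with a 95% interval of -1.07 to -0.74. The change rested on 2860 to 3565 counts per miR-122-5p library and 5352 to 7799 per control library, and ranked 339th of the tested genes by p.

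With 60.6% GC, SIGLEC1 moved against the GC trend: tested genes within 2.5 percentage points of its GC content had a median log2 fold change of 0.32. Its fold change was -1.19 ± 0.06 in the GC- and length-corrected fit and -1.08 ± 0.11 in the slope fit. Without control libraries 1 and 6 it was -0.95 ± 0.07. In bulk RNA, fewer cells with the transcript and less transcript per cell cannot be told apart. The macrophage markers did not move as a block beside it: 3 of the 9 tested were higher and 4 lower (median 0.10). Of all tested genes, 24.3% were higher and 26.2% lower. In the corrected fit 3 markers were higher and 5 lower (median -0.33). CD163 was at -0.81 ± 0.11 and CSF1R at -0.36 ± 0.07, whereas MARCO was at 1.47 ± 0.27 and ITGAM at 0.19 ± 0.06. The part of these markers in the SIGLEC1 result was not tested.

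Interferon input is shown beside SIGLEC1 because the gene is known to respond to it. Of 8 genes in this list, 5 were lower, 1 was higher and 2 were not called (median -0.30). Of all tested genes, 26.2% were lower and 24.3% higher. In the corrected fit 4 genes of the list were lower and 0 higher (median -0.11). IFNB1, which encodes the secreted type I interferon, was at 7.68 ± 1.25 CPM with miR-122-5p and 115 ± 17.6 CPM with the control mimic (SD, n = 6 each), a log2 fold change of -3.90 ± 0.12 (edgeR adjusted p = 4.41e-16). The transcription factor STAT2, which carries the interferon signal to the nucleus, fell by 0.90 ± 0.06 on the log2 scale. The receptor-bound kinase TYK2 was called higher at 0.35 ± 0.08, but its value was 0.04 in the corrected fit (adjusted p = 0.580) and 0.00 in the slope fit (adjusted p = 0.985). Whether the fall of these genes bears on that of SIGLEC1 was not tested.

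The genes whose profile over the 12 libraries was most like that of SIGLEC1 were sought among 8335 genes whose mean log2 CPM was 3 or more, by the root mean square (RMS) difference of centred log2 CPM. The closest was the RNA helicase gene MOV10, with an RMS difference of 0.0674, where the SD of the SIGLEC1 profile itself was 0.461. CNP, MYO1G and NLRC5 were also among the closest, at 0.0851, 0.0855 and 0.0875. MYO1G encodes a myosin of blood cells and NLRC5 a transactivator of MHC class I genes. MOV10 averaged 172 ± 8.11 CPM with miR-122-5p and 315 ± 23.2 CPM with the control mimic (SD, n = 6 each). The log2 fold changes of these 4 genes ran from -0.95 ± 0.07 for CNP to -0.80 ± 0.07 for NLRC5. The likeness is largely the shared difference between the groups. It is a description over libraries that also differ in depth and GC slope.

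Per kilobase of annotated exon, SIGLEC1 was the most abundant of the 9 transcripts in both groups, with 12.4 ± 0.521 CPM per kb with miR-122-5p and 23.1 ± 2.53 CPM per kb with the control mimic (SD, n = 6 each). SIGLEC1 made up 43.7 ± 2.02% of the summed level of the 9 genes with miR-122-5p, against 60.0 ± 2.91% with the control mimic. The library ranges of that share, 41.4 to 47.1% with miR-122-5p and 57.0 to 64.1% with the control mimic, did not overlap. The summed level was 28.3 ± 0.807 CPM per kb with miR-122-5p, against 38.5 ± 3.30 with the control mimic, whereas the other 8 genes together were at 15.9 ± 0.856 and 15.4 ± 1.44 CPM per kb. The difference in SIGLEC1 alone was as large as that in the sum.

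**Figure D2:**
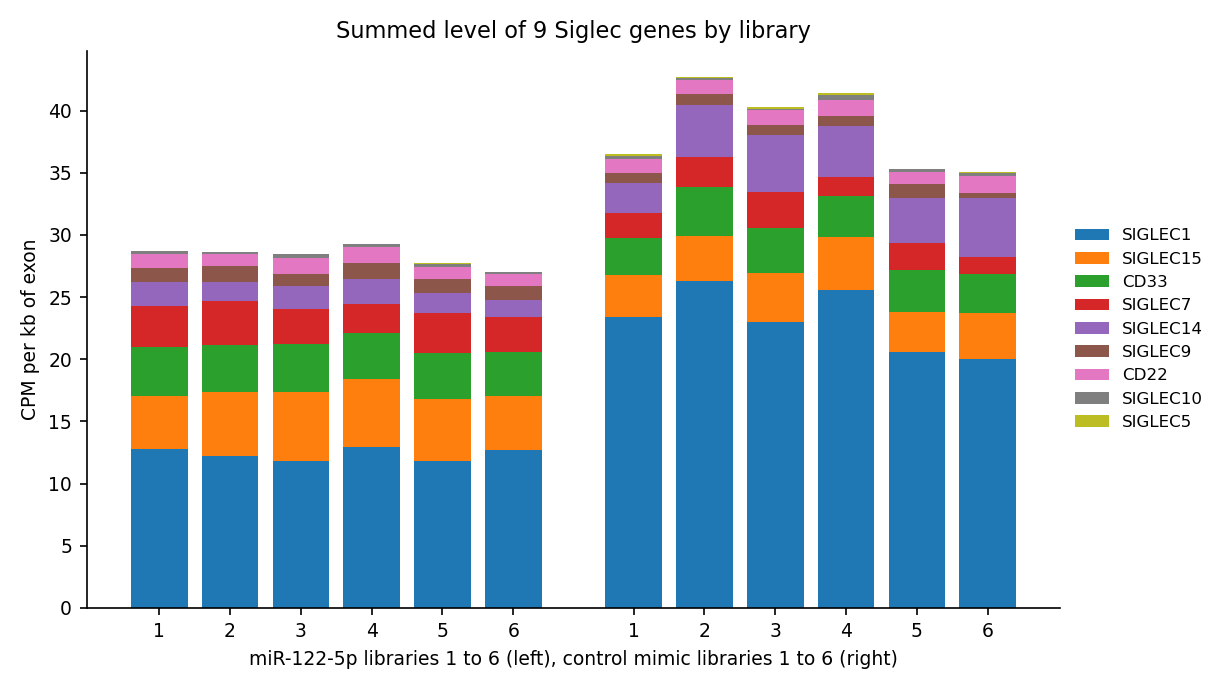
Stacked level of the 9 Siglec genes (CPM per kb of exon, linear axis from 0) in each of the 6 miR-122-5p libraries (left) and the 6 control mimic libraries (right). The SIGLEC1 block at the base is lower in every miR-122-5p library, with a mean of 12.4 CPM per kb against 23.1, and the sum of the other genes is alike in both groups.

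Below SIGLEC1, the order of levels per kb with miR-122-5p was SIGLEC15 (4.96), CD33 (3.75), SIGLEC7 (3.01), SIGLEC14 (1.70), SIGLEC9 (1.17), CD22 (1.11), SIGLEC10 (0.22) and SIGLEC5 (0.00854). In that group the libraries overlapped between CD33 and SIGLEC7 and between SIGLEC9 and CD22. With the control mimic, SIGLEC14 (3.94), SIGLEC15 (3.68) and CD33 (3.38) came next after SIGLEC1, closer together than the SD of SIGLEC14 (0.838), and were followed by SIGLEC7 (2.10), CD22 (1.19) and SIGLEC9 (0.787). SIGLEC14 therefore stood 5th with miR-122-5p and 2nd with the control mimic. The place of SIGLEC14 depends on the length used: per kb of the longest transcript it stood 6th with miR-122-5p and 4th with the control mimic.

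Among the receptors that pair with TYROBP, SIGLEC14 and SIGLEC15 moved in opposite directions. SIGLEC14 (ENSG00000254415, chromosome 19, 51642553 to 51646801, minus strand) is an activating receptor of myeloid cells that shares its ligand-binding end with the inhibitory SIGLEC5. Its level was 2.85, 3.63 and 4.09 CPM in the lowest, median and highest miR-122-5p libraries, against 5.12, 8.62 and 9.89 CPM in control mimic libraries. No miR-122-5p library reached the lowest control library, and control library 1 lay below the other 5 controls. The log2 fold change was -1.21 ± 0.15 (edgeR adjusted p = 1.16e-06; 3.54 ± 0.503 against 8.21 ± 1.75 CPM, SD, n = 6 each), a 2.32-fold lower level. It was -1.35 ± 0.15 in the corrected fit and -1.72 ± 0.26 in the slope fit.

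SIGLEC5 (ENSG00000105501, chromosome 19, 51611927 to 51645545, minus strand) overlaps SIGLEC14 and a second row of the table, AC018755.2, and the counts of all 3 are uncertain. Other annotated genes cover 77.5% of SIGLEC5 exon bases, leaving 532 bases of its own, and 25.6% of SIGLEC14 exon bases. Of the 50-base windows of its longest transcript, 82.2% also occur in another gene, 29.3% in SIGLEC14; for SIGLEC14 33.6% are shared. AC018755.2, a row that a newer symbol table also names SIGLEC5, had 0 counts in all libraries. SIGLEC5 had 0 to 2 counts in miR-122-5p libraries, 4 in all, against 4 to 12 in control mimic libraries, 43 in all. The groups did not overlap, and the ratio after scaling for library size was 0.0935 (exact 95% interval 0.0244 to 0.257, for counting error only). SIGLEC5 was below the low-count filter; with no filter its log2 fold change was -3.17 ± 1.07 (edgeR adjusted p = 0.0148 over 30198 genes).

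SIGLEC15 (chromosome 18, 45825512 to 45844080, plus strand) is a receptor known from osteoclasts, where it acts through TYROBP, and from tumour macrophages. Its level was 15.2, 18.3 and 19.9 CPM in the lowest, median and highest miR-122-5p libraries, against 11.6, 13.2 and 15.3 CPM in control mimic libraries. The ranges overlapped only at their ends, with 5 of 6 miR-122-5p libraries above every control library. The log2 fold change was 0.43 ± 0.10 (edgeR adjusted p = 0.000893; 17.8 ± 2.06 against 13.2 ± 1.38 CPM, SD, n = 6 each). Tested genes of like GC content had a median of 0.20; in the corrected fit SIGLEC15 was at 0.27 ± 0.09 (adjusted p = 0.0153), and in the slope fit at 0.25 ± 0.17 (adjusted p = 0.372), which ended the call. Of 6 osteoclast markers, 5 were tested, 0 were higher and 3 were lower, among them the fusion receptor gene DCSTAMP at -0.49 ± 0.07. Of all tested genes, 26.2% were lower. In the corrected fit 0 markers were higher and 4 lower (median -0.36). The 6 markers summed to 597 to 658 CPM with miR-122-5p and 772 to 838 CPM with the control mimic. SIGLEC15 thus differed in direction from the called markers in both fits. The part of these markers in the SIGLEC15 result was not tested.

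The inhibitory receptors SIGLEC7 and SIGLEC9 lie next to each other on chromosome 19 and were both called higher. SIGLEC7 (51142299 to 51153526, plus strand), best known from NK cells and monocytes, was at 4.88, 6.16 and 7.36 CPM in the lowest, median and highest miR-122-5p libraries, against 2.95, 4.32 and 5.98 CPM in control mimic libraries. The groups overlapped, and 3 miR-122-5p libraries lay above every control library. The log2 fold change was 0.53 ± 0.16 (edgeR adjusted p = 0.0104; 6.16 ± 0.878 against 4.28 ± 1.14 CPM, SD, n = 6 each). The call ended in the corrected fit (0.36 ± 0.15, adjusted p = 0.0601) and in the slope fit (0.17 ± 0.29, adjusted p = 0.762), but SIGLEC7 was called with the replicate number as a block in the corrected fit (0.38, adjusted p = 0.0366); genes of like GC content had a median of 0.19. Antisense genes cover 22.7% of SIGLEC7 exon bases, and without a stated strand setting their reads cannot be told apart.

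SIGLEC9 (51124908 to 51136651, plus strand), an inhibitory receptor of neutrophils and monocytes, was at 2.38, 2.96 and 3.40 CPM in the lowest, median and highest miR-122-5p libraries, against 0.902, 2.04 and 2.95 CPM in control mimic libraries. The groups overlapped through control library 5, the highest, and control library 6 was far below the rest of its group. The log2 fold change was 0.58 ± 0.21 (edgeR adjusted p = 0.0304; 2.98 ± 0.381 against 2.00 ± 0.655 CPM, SD, n = 6 each). This call was the least stable of the 5: it ended without miR-122-5p library 1 (adjusted p = 0.0502), 2 (0.0603) or 4 (0.0596). The SIGLEC9 call also ended without control libraries 1 and 6 together (0.37 ± 0.18, adjusted p = 0.101) and in the slope fit (0.43 ± 0.41, adjusted p = 0.532). In the corrected fit it ended both without the replicate block (0.45 ± 0.21, adjusted p = 0.0850) and with it (0.50 ± 0.22, adjusted p = 0.0771). Over all 23 alternatives, its adjusted p ran from 0.00957 to 0.532. Of 7 T and NK cell markers 0 passed the low-count filter, CD3D, CD3E and CD2 were at 0 in all libraries, and the 7 summed to 0.291 to 0.504 CPM with miR-122-5p and 0 to 0.486 CPM with the control mimic.

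CD33, an inhibitory Siglec of myeloid cells (chromosome 19, 51225064 to 51243860, plus strand), was at 21.2, 22.1 and 23.9 CPM in the lowest, median and highest miR-122-5p libraries, against 18.1, 19.8 and 23.4 CPM in control mimic libraries. The groups overlapped, chiefly through control library 2. The log2 fold change of 0.15 ± 0.08 was not called (edgeR adjusted p = 0.122), with a 95% interval of -0.03 to 0.33. CD33 has a lower GC content than the other members, 45.9%, and genes of like content had a median of -0.10. In the corrected fit it was called higher (0.30 ± 0.08, adjusted p = 0.00602), as it was without control library 2 (0.21, adjusted p = 0.0361), but in the slope fit its sign turned (-0.11 ± 0.12, adjusted p = 0.579).

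CD22, the inhibitory Siglec of the B cell receptor (chromosome 19, 35319261 to 35347355, plus strand), was at 6.05, 6.40 and 8.23 CPM in the lowest, median and highest miR-122-5p libraries, against 5.75, 7.28 and 8.58 CPM in control mimic libraries. The ranges were almost the same, and the log2 fold change of -0.10 ± 0.12 was not called (edgeR adjusted p = 0.546; 95% interval -0.37 to 0.18). Other genes of the B lineage were far from level beside it: PAX5, the defining transcription factor of B cells, was at 2.16 CPM with miR-122-5p and 22.2 CPM with the control mimic (-3.36 ± 0.13), and the scaffold gene BANK1 fell by 3.01 ± 0.27 on the log2 scale. BLK was at 0 in all libraries and MS4A1 reached at most 6 counts; the 7 B cell markers summed to 6.04 to 8.31 CPM with miR-122-5p and 25.0 to 33.1 CPM with the control mimic. Their part in the CD22 result was not tested.

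SIGLEC10, an inhibitory receptor that binds CD24 and CD52 (chromosome 19, 51410021 to 51417803, minus strand), was the least abundant tested member. It was at 0.479, 0.893 and 1.12 CPM in the lowest, median and highest miR-122-5p libraries, against 0.332, 0.830 and 1.58 CPM in control mimic libraries. With 16 to 41 counts per miR-122-5p library and 10 to 61 per control library, the log2 fold change of -0.06 ± 0.35 (edgeR adjusted p = 0.900) had a 95% interval of -0.84 to 0.72. A change of up to 1.5-fold in either direction lies inside that interval, so it could not be told from no change with these libraries. Antisense genes cover 22.6% of its exon bases, and 7.16% of its 50-base windows are shared, mostly with SIGLEC16.

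**Figure D3:**
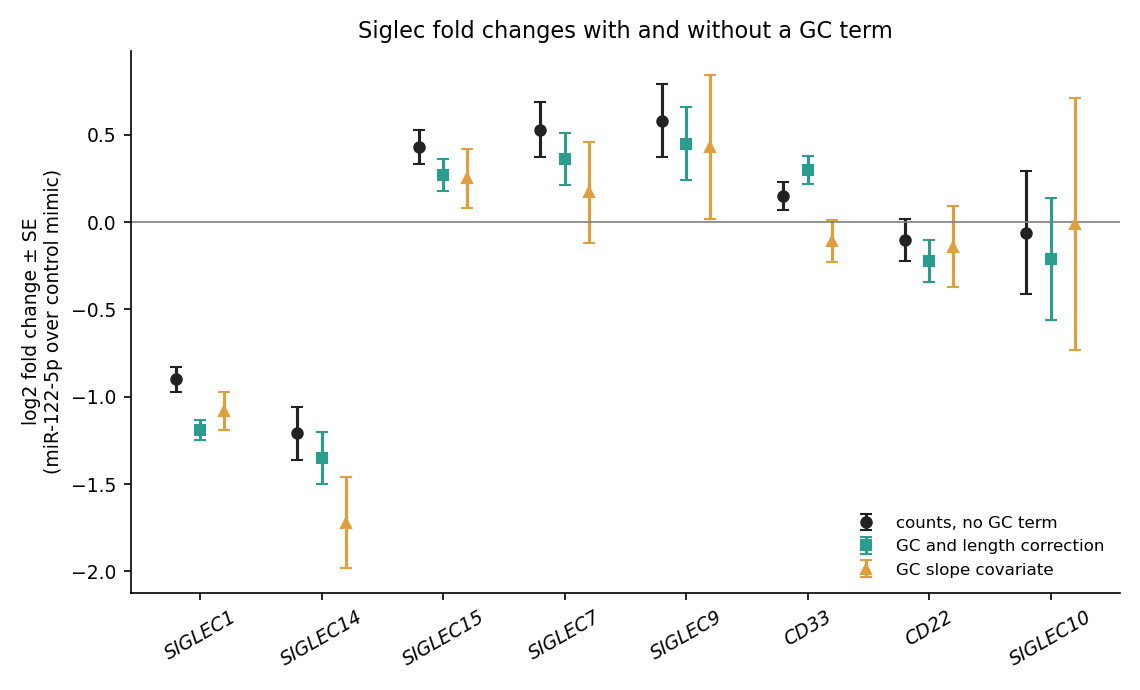
Log2 fold change ± SE (miR-122-5p over control mimic) of the 8 tested Siglec genes from the counts without a GC term (black), in the fit corrected for GC content and length (green) and with the GC slope of each library as a term (yellow). SIGLEC1 and SIGLEC14 stay below -0.8 in all 3 fits, whereas SIGLEC15, SIGLEC7 and SIGLEC9 move toward 0 and CD33 lies on either side of it.

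Beyond the 9 genes, 7 other genes of the family were looked at as a list. Of these, 4 were tested, 2 were lower and 0 higher, where 26.2% of all tested genes were lower and 24.3% higher. SIGLEC12, whose human protein has lost normal sialic acid binding, was at 0.142 ± 0.133 CPM with miR-122-5p and 1.32 ± 0.576 CPM with the control mimic (SD, n = 6 each; log2 fold change -3.18 ± 0.47, edgeR adjusted p = 8.64e-06). That change rests on 2 to 14 counts per miR-122-5p library and 15 to 70 per control library, which do not overlap. SIGLEC12 passed the low-count filter through the control libraries, where it is higher. Its call and lack of overlap are therefore descriptions only, and add no support for a fall of the family. SIGLEC11, an inhibitory receptor of tissue macrophages and microglia, was lower as well (-0.98 ± 0.26, adjusted p = 0.00337; 2.00 against 3.96 CPM). SIGLEC16, its activating partner, which many people carry as a pseudogene, was at -0.46 ± 0.23 (adjusted p = 0.0967) and MAG, the myelin Siglec, at 0.14 ± 0.48 (adjusted p = 0.834). SIGLEC16 was called lower in the corrected fit (-0.66, adjusted p = 0.0142), in the slope fit (-1.25, adjusted p = 0.0179) and without control library 1. SIGLEC6, SIGLEC8 and SIGLECL1 were not tested.

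Most of these genes sit in 1 cluster on chromosome 19, from 51119987 to 51646889, with 18 annotated Siglec rows of which 8 were tested. In order along the chromosome, SIGLEC9, SIGLEC7, the transcribed pseudogene SIGLEC17P and CD33, all on the plus strand, had log2 fold changes of 0.58, 0.53, 0.66 and 0.15. SIGLEC10, SIGLEC12 and SIGLEC14, all on the minus strand, followed at -0.06, -3.18 and -1.21. The pseudogene SIGLEC22P, between SIGLEC17P and CD33 on the plus strand, was at -0.29 ± 0.39 (adjusted p = 0.564). SIGLEC17P averaged 25.1 ± 2.79 CPM with miR-122-5p and 15.9 ± 2.97 CPM with the control mimic (SD, n = 6 each; edgeR adjusted p = 4.52e-05); in the slope fit its call ended (0.21, adjusted p = 0.427). SIGLEC17P and this ordering by position were chosen after the values were seen, and no test of position was made.

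**Figure D4:**
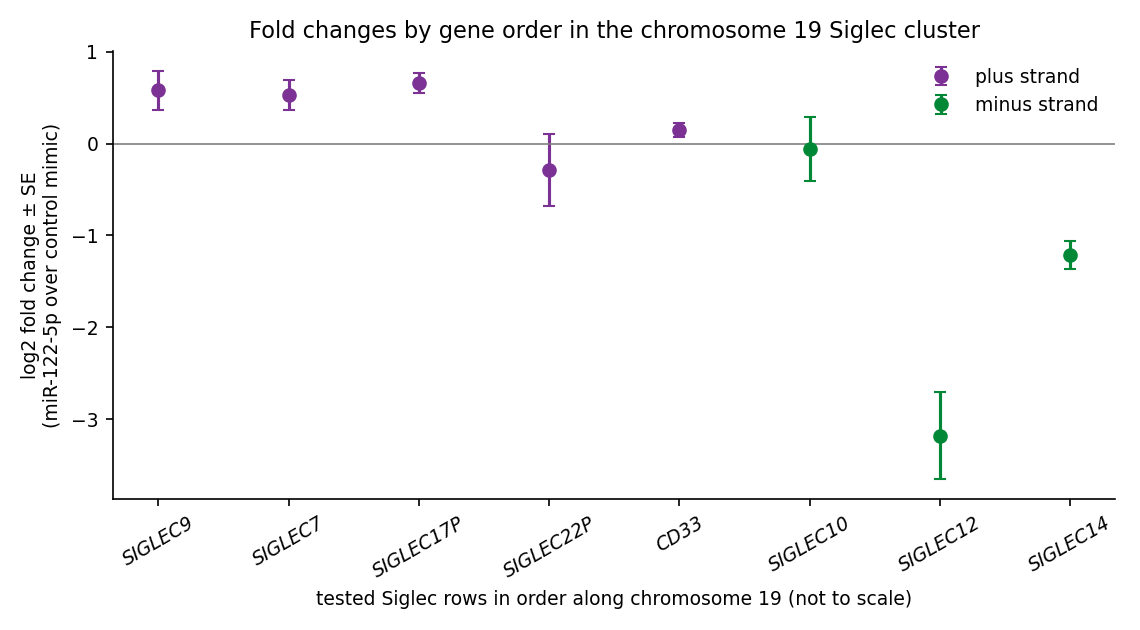
Log2 fold change ± SE (miR-122-5p over control mimic) of the 8 tested Siglec rows in their order along the chromosome 19 cluster, plus strand genes in purple and minus strand genes in green; spacing is not to scale. The first 3 rows lie between 0.53 and 0.66, and the last 3 between -0.06 and -3.18. SIGLEC12, at -3.18, passed the low-count filter through the control libraries.

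Matches to the miR-122-5p seed were sought in each gene's longest protein-coding 3′ UTR in GENCODE 29. A 7mer-m8 match pairs with seed bases 2 to 8, and was the strongest class in 5.73% of 12874 tested genes with a UTR; 63.1% had no match. SIGLEC1, SIGLEC7 and SIGLEC10 had a 7mer-m8 match and SIGLEC9 a 6mer, the strongest class in 13% of genes. SIGLEC5, SIGLEC14, SIGLEC15 and CD22 had none. The sites are printed as the transcript reads, as DNA letters from 5′ to 3′, with the match in capitals.
SIGLEC1: ccagccatgcACACTCCcaccaatcct
SIGLEC7: caatcggtccACACTCCccgccctggc
SIGLEC10: cctcactgctACACTCCtgacagcacc
SIGLEC9: ctcaactcagCACTCCtgagctgcat

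The 6-base core of the SIGLEC1 match lies at chromosome 20, 3688716 to 3688721, in a UTR annotated for 1 of 2 coding transcripts, which also holds 2 matches of the 6mer class. The SIGLEC7 core lies at chromosome 19, 51153432 to 51153437, in the UTR of 2 of 3 coding transcripts, and the SIGLEC10 core at 51410238 to 51410243, in 3 of 7. The SIGLEC9 core lies at 51136351 to 51136356, in 1 of 2. Of the 3 genes with a 7mer-m8 match, SIGLEC1 was lower, SIGLEC7 higher and SIGLEC10 not called.

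Promoter windows of RefSeq (GRCh38.p14, 250 bases before to 50 after the start) were found for 8 of the 9 genes, all but SIGLEC1. The letters GAGGAA, a core bound by the macrophage factor SPI1, were searched on both strands; they were present in windows of CD33, SIGLEC7, SIGLEC9 and SIGLEC15 and in 27.9% of 35116 windows. TTCNNNGAA, a pattern of interferon-gamma activated sites, and GAAANNGAA, a pattern of interferon response elements, were in 7.66% and 8.11% of all windows and in none of those of the 8 genes. The patterns are descriptions of these windows only.

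The wider pathway was described over 7 lists with 55 tested genes, of which 12 were higher, 22 were lower and 21 were not called (median -0.13, against 0.01 over all genes). Over all 15471 tested genes 24.3% were higher and 26.2% lower. In the corrected fit the split of the 34 calls was 8 higher and 26 lower, where 3558 of all genes were higher and 3674 lower. In the slope fit 4 were higher and 15 lower, where 1119 of all genes were higher and 1890 lower.

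Signalling partners went both ways, with 4 of 11 higher, 4 lower and 3 not called (median -0.13). In the corrected fit the split was 3 higher and 7 lower (median -0.30). INPP5D, an inositol phosphatase of blood cells, fell to 33.7 ± 3.80 CPM with miR-122-5p, against 63.9 ± 6.08 CPM with the control mimic (SD, n = 6 each; log2 fold change -0.92 ± 0.08, edgeR adjusted p = 1.15e-08). The kinase LYN, which phosphorylates Siglec tyrosine motifs, fell by 0.89 ± 0.09 on the log2 scale, and its relative FGR was called higher (0.41 ± 0.07), which ended in the slope fit (0.18, adjusted p = 0.211). The phosphatase PTPN11 rose by 0.23 ± 0.08 (adjusted p = 0.0139), whereas PTPN6 was at 0.08 ± 0.09 (adjusted p = 0.483) and was called lower in the corrected fit (-0.19, adjusted p = 0.00815).

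TYROBP, the adaptor of SIGLEC14 and SIGLEC15, was at 1030 ± 138 CPM with miR-122-5p and 837 ± 70.7 CPM with the control mimic (SD, n = 6 each). Its log2 fold change of 0.30 ± 0.08 (edgeR adjusted p = 0.00418) became -0.04 in the corrected fit (adjusted p = 0.715) and 0.15 in the slope fit (adjusted p = 0.539). SYK, the kinase that TYROBP recruits, fell by 0.32 ± 0.06 on the log2 scale, with no overlap between the groups. HCST, a related adaptor gene, was at 1.13 ± 0.19, with 50.1% of its exon bases covered by antisense genes.

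Genes of sialic acid supply were mostly not called (1 of 8 higher, 2 lower). In the corrected fit 2 were higher and 2 lower. NANS and CMAS, which make and activate sialic acid, fell by 0.47 ± 0.08 and 0.39 ± 0.07 on the log2 scale. RENBP, which acts on the precursor sugar, was called higher at 0.56 ± 0.09, but was at 0.12 in the corrected fit (adjusted p = 0.257) and at 0.34 in the slope fit (adjusted p = 0.154). SLC35A1, the transporter of activated sialic acid, was at -0.47 ± 0.22 (adjusted p = 0.0729) and was called lower without control library 6.

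Of 20 sialyltransferase genes, which build the ligands of Siglecs, 13 were tested, 4 were higher and 5 were lower. In the corrected fit 2 were higher and 4 lower. ST8SIA4, which makes polysialic acid, was at 16.3 ± 1.31 CPM with miR-122-5p and 28.0 ± 4.07 CPM with the control mimic (SD, n = 6 each; log2 fold change -0.78 ± 0.10, edgeR adjusted p = 8.96e-07). ST6GAL1, which makes the linkage that CD22 binds, was at -0.54 ± 0.10. ST6GALNAC4 and ST3GAL4 were called higher, at 0.63 ± 0.11 and 0.37 ± 0.07, and their values in the corrected fit were 0.18 (adjusted p = 0.0417) and 0.16 (adjusted p = 0.0859). In the slope fit the calls of ST8SIA4 (-0.37, adjusted p = 0.0640), ST6GAL1 (-0.47, adjusted p = 0.0712) and ST6GALNAC4 (0.11, adjusted p = 0.659) ended.

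Among sialidases, which remove sialic acid, NEU1 (-0.05 ± 0.06), NEU3 (0.12 ± 0.19) and NEU4 (-0.10 ± 0.17) were not called, with adjusted p from 0.518 to 0.647, and NEU2 was at 0. NEU4 was called lower in the corrected fit (-0.63, adjusted p = 0.00217). CTSA, the lysosomal partner that protects NEU1, was called higher (0.34 ± 0.08), but was at 0.03 in the corrected fit (adjusted p = 0.618) and at 0 in the slope fit (adjusted p = 0.994).

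Of 8 genes for sialylated proteins that Siglecs are known to bind, 7 were tested, 4 were lower and 1 was higher (median -0.99). Of all tested genes, 26.2% were lower and 24.3% higher. In the corrected fit 5 ligand genes were lower and 1 higher (median -1.10). Among ligand genes not called, SPN was at 53.8 ± 4.67 CPM with miR-122-5p and 50.7 ± 4.25 CPM with the control mimic (SD, n = 6 each). Its log2 fold change was 0.08 ± 0.08 (edgeR adjusted p = 0.382). LGALS3BP, a secreted glycoprotein, was at 159 ± 15.9 CPM with miR-122-5p and 330 ± 32.7 CPM with the control mimic (SD, n = 6 each; log2 fold change -1.05 ± 0.08, edgeR adjusted p = 5.26e-10). The mucin-type proteins MUC1 and SELPLG fell by 0.99 ± 0.14 and 1.09 ± 0.18 on the log2 scale, with levels under 10 CPM in both groups. The SIGLEC10 ligands CD52 and CD24 moved in opposite directions. CD52 was at 979, 1073 and 1307 CPM in the lowest, median and highest miR-122-5p libraries, against 132, 535 and 699 CPM in control mimic libraries (log2 fold change 1.16 ± 0.23, edgeR adjusted p = 0.000201), and CD24, at 0.415 against 0.981 CPM, fell by 1.23 ± 0.42. Both calls ended in the slope fit (CD52 0.16, adjusted p = 0.803; CD24 -0.46, adjusted p = 0.726).

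**Figure D5:**
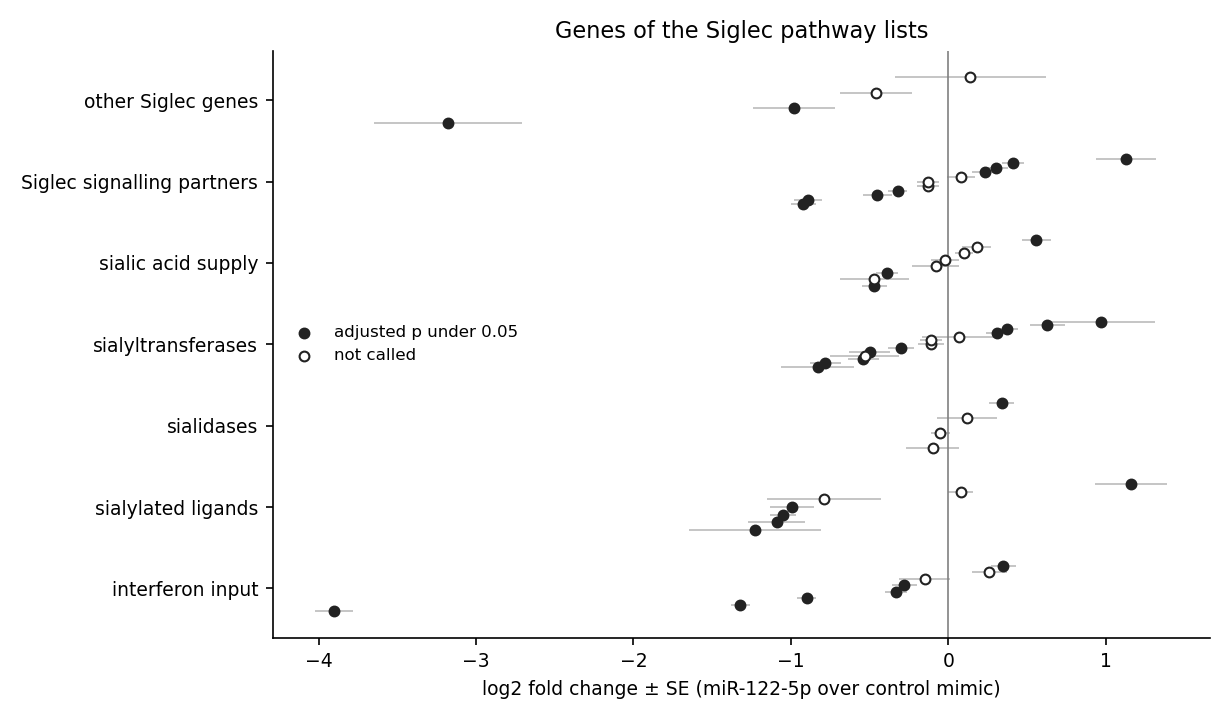
Log2 fold change ± SE (miR-122-5p over control mimic) of each tested gene in the 7 pathway lists, filled where the edgeR adjusted p was under 0.05 and open where it was not. IFNB1 at -3.90 and SIGLEC12 at -3.18 are farthest to the left, and CD52 at 1.16 and HCST at 1.13 farthest to the right. SIGLEC12 passed the low-count filter through the control libraries.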

How the data were processed

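The deposited data are a single table of raw gene counts for 12 libraries, 6 per group, made per the labels' protocols from 1 µg of Trizol RNA with an NEBNext Ultra kit. The submitters' processing notes list hg38, featureCounts 1.5.0-p3 and HISAT2 2.0.5; for annotation and strand the setting is not given in the sources used here. Columns were matched to groups by name; those of the control were read as control mimic. All 58735 gene IDs matched GENCODE 29, the source of symbols, coordinates, exon lengths and GC content.

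In R 4.3.3, filterByExpr kept 15471 genes and edgeR 4.0.16 compared the groups by its quasi-likelihood test after TMM scaling, with p-values adjusted over all these genes (Benjamini-Hochberg, threshold 0.05). The SE is the fold change over the square root of F, and intervals use 10 degrees of freedom. Only this main edgeR fit was tested on simulated data, and the alternatives that follow were not. Alternatives were DESeq2 1.42.0, limma-voom 3.58.1, other scalings, filters and thresholds, a replicate block, each library left out, and 2 GC settings: spline offsets for GC content and length (4 degrees of freedom; the corrected fit), and the GC slope of each library as a covariate (the slope fit). No library was a copy of another of its group: pairs differed beyond sampling noise, with a chi-square of 7.86 to 73.0 per degree of freedom.

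The 9 genes, the lists and the markers were chosen with earlier results of these data known. Named list genes are up to 4 of smallest p in each list, plus direct partners or ligands of a member and, as chosen after their values were seen, SIGLEC17P and SIGLEC22P. The values of 2 genes and 1 site are not reported here.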

Additional observations from a re-analysis of the deposited data

How the results depend on the processing

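The Siglec genes were fitted under 24 alternatives. SIGLEC1 (-1.19 to -0.86) and SIGLEC14 (-1.72 to -1.15) were called lower in all 23 that refit the counts, and CD22 and SIGLEC10 were called in none. Of the 5 called Siglec genes, 2 remained called with the GC slope covariate and 3 at an adjusted p under 0.01; with 1 library left out at a time the number called was 4 to 6. The GC slope covariate also reduced the calls over all tested genes to 3009 (1119 higher and 1890 lower, against 3756 and 4054) and those over the pathway lists to 19, against 34; the cause was not tested. With the replicate block, 5 Siglec genes, 35 pathway genes and 7587 of all genes were called. In the fit without a GC term the block changed no Siglec call. Nothing in the labels links same-numbered libraries beyond that number. Their correlations were -0.105 to 0.0660, and 1 of 6 correlated best with its own number. These values cannot show whether such libraries shared a culture or batch. Added to the GC and length correction, the block took the Siglec genes called to 5, against 4 without it, SIGLEC7 being the added one (0.38, edgeR adjusted p = 0.0366). With no low-count filter 6 Siglec genes were called, SIGLEC5 being the added one. The median of all genes moved between -0.01 and 0.05. Depth limits SIGLEC10, SIGLEC12 and SIGLEC5, with at most 70 counts in any library.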

Other observations

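Within the chromosome 19 Siglec cluster, 36 other annotated genes lie between the outermost Siglec rows, and 7 of them were tested. They went both ways, with 2 higher and 2 lower in miR-122-5p libraries (median log2 fold change 0.22). Of all tested genes, 24.3% were higher and 26.2% lower. ETFB, a mitochondrial electron carrier subunit, was at 0.66 ± 0.10 (edgeR adjusted p = 1.81e-05) and AC018755.3 at 0.78 ± 0.25 (adjusted p = 0.0123). VSIG10L was at -1.23 ± 0.11 (adjusted p = 7.72e-09) and the zinc finger gene ZNF175 at -0.63 ± 0.15 (adjusted p = 0.00145). NKG7, an immune granule gene in the middle of the cluster, was at -0.04 ± 0.11 (adjusted p = 0.758). These neighbours were looked at after the Siglec values were seen. VSIG10L, ETFB, NKG7 and CLDND2 (1.19 ± 0.57, edgeR adjusted p = 0.0871) lie on the minus strand. ZNF175, AC018755.3 and IGLON5 (0.22 ± 0.31, edgeR adjusted p = 0.572) lie on the plus strand.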
